A study of Mus musculus with 8 samples.

Results

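The 31 genes described here encode enzymes and carriers of the citric acid cycle and of the reactions that feed it or draw carbon from it. They were chosen by name, with earlier results of these data known, from the 53801 genes of a count table, and each symbol had 1 identifier. The products of 24 of them work in mitochondria and those of the other 7 (Aco1, Idh1, Mdh1, Got1, Glul, Me1 and Acly) in the cytosol. All 31 had reads and 30 could be tested.

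The citric acid cycle oxidizes acetyl-CoA to carbon dioxide in the mitochondrial matrix and passes the electrons to the respiratory chain. Several of its steps have a counterpart in the cytosol, encoded by another gene, so that citrate, malate, aspartate and 2-oxoglutarate can carry carbon and reducing power between compartments. The cycle also supplies building blocks: citrate leaves for fatty acid synthesis, and 2-oxoglutarate and oxaloacetate exchange with glutamate and aspartate.

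RNA was sequenced from cells of MO5 tumors. MO5 is a B16 mouse melanoma line that carries the ovalbumin gene and was implanted under the skin. The hosts were ADAM12-GFP mice on the C57Bl/6 background, 8 to 12 weeks old at implantation, in which a bacterial artificial chromosome places Cre and GFP under control of the Adam12 promoter. Tumors were taken at day 8. Both groups came from these reporter mice and shared the sort: live cells negative for CD45 and CD31 and positive for PDPN and PDGFRα, which are stromal (fibroblast-like) cells. They were divided by GFP alone into GFP+ (ADAM12+) and GFP- (ADAM12–) cells, with 4 libraries each. The comparison asks how these cell groups differ in RNA. The labels do not say whether the replicates came from separate mice. The study's methods state that n counts mice unless specified otherwise, but do not tie single libraries to animals. The p-values measure the spread between these samples, and GFP reports the activity of the transgene's promoter.

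Libraries held 883144 to 31666734 counted reads, and GFP- replicate 3 was the shallowest. Normalised counts are reads divided by a size factor per library. Adam12, the gene whose promoter drives the reporter, was at 920 to 1693 normalised counts in GFP- and 1833 to 2938 in GFP+ libraries (log2 fold change 0.75 ± 0.24 (SE), adjusted p = 0.0266 by DESeq2 and 0.0643 by edgeR). By DESeq2 its adjusted p was 0.0767 when GFP+ replicate 2 was left out, 0.117 when GFP+ replicate 4 was, 0.0689 when GFP- replicate 3 was and 0.0852 when GFP- replicate 4 was, and 0.662 with a score of melanocyte markers added to the model. The groups also differed in markers of other cells. All 13 melanocyte markers, of which Dct had most reads, were lower in GFP+: their sum was 27172 to 78958 normalised counts in GFP- and 4653 to 12536 in GFP+ libraries. Of 8 stromal markers 6 were higher in GFP+, and their sum, in which Col3a1 had most reads, was 253552 to 559288 in GFP- and 666226 to 764372 in GFP+ libraries. Leukocyte markers, with most reads from Lyz2, had 0 of 9 tested genes called by DESeq2 and by edgeR, 0 at an unadjusted p under 0.05, and sums of 719 to 4768 and 692 to 3676. DESeq2 called 1 of 5 endothelial markers lower, 2 of 5 Schwann cell markers lower and 1 higher, and 1 of 6 pericyte markers higher, and 0 of the 8 tested markers of skeletal muscle, keratinocytes, adipocytes and erythroid cells, of which 1 adipocyte marker had an unadjusted p under 0.05 and edgeR called 0. Each marker had reads in at least 1 library. In bulk samples, fewer cells of a type and less RNA per cell cannot be told apart.

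In GFP+ cells 6 enzymes were lower: Idh2, Got2, Mdh1, Idh3a, Mdh2 and Ogdh. Their counts in GFP+ cells were 0.397 to 0.620 of those in GFP- cells. Of these 6 enzymes 5 are mitochondrial, as are 23 of the 30 tested members. Only 1 passed in the other direction: the cytosolic isocitrate dehydrogenase Idh1 was higher, at 1.49 times the GFP- level. The 6 lower genes were 20% of the 30 tested, against 4.76% of all 15283 tested genes called lower by DESeq2 (adjusted p under 0.05), and 1 higher gene was 3.33% against 4.66%. Among tested genes with at least the mean count of the lowest tested member, 5.92% were called lower. The median log2 fold change of the 30 genes was -0.16, 18 of 30 were below 0, and the median over all tested genes was -0.01. EdgeR's quasi-likelihood test called the same 6 genes lower, where it called 2.28% of 14323 genes lower, and called 0 higher, where it called 2.83% of genes higher. At an unadjusted p under 0.05 both tools counted 9 members lower and 3 higher. With the score of melanocyte markers added to the model, DESeq2 called 0 members in either direction, where it called 0.137% of all tested genes lower.

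By compartment, 5 of 23 tested mitochondrial genes were called lower and 0 higher by DESeq2 (1 at an unadjusted p under 0.05, and 0 by edgeR), with a median log2 fold change of -0.26. Of the 7 cytosolic genes 1 was called lower and 1 higher, with a median of -0.04. The difference between compartments was not tested. For 10 of 30 genes every library of 1 group lay above every library of the other, against 12.3% of all tested genes. Summed over the mitochondrial members, the libraries held 13558 to 18856 normalised counts in GFP- and 12980 to 15142 in GFP+, which overlap. The cytosolic sums, 7808 to 8738 and 8020 to 9569, overlap as well.

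**Figure D1:**
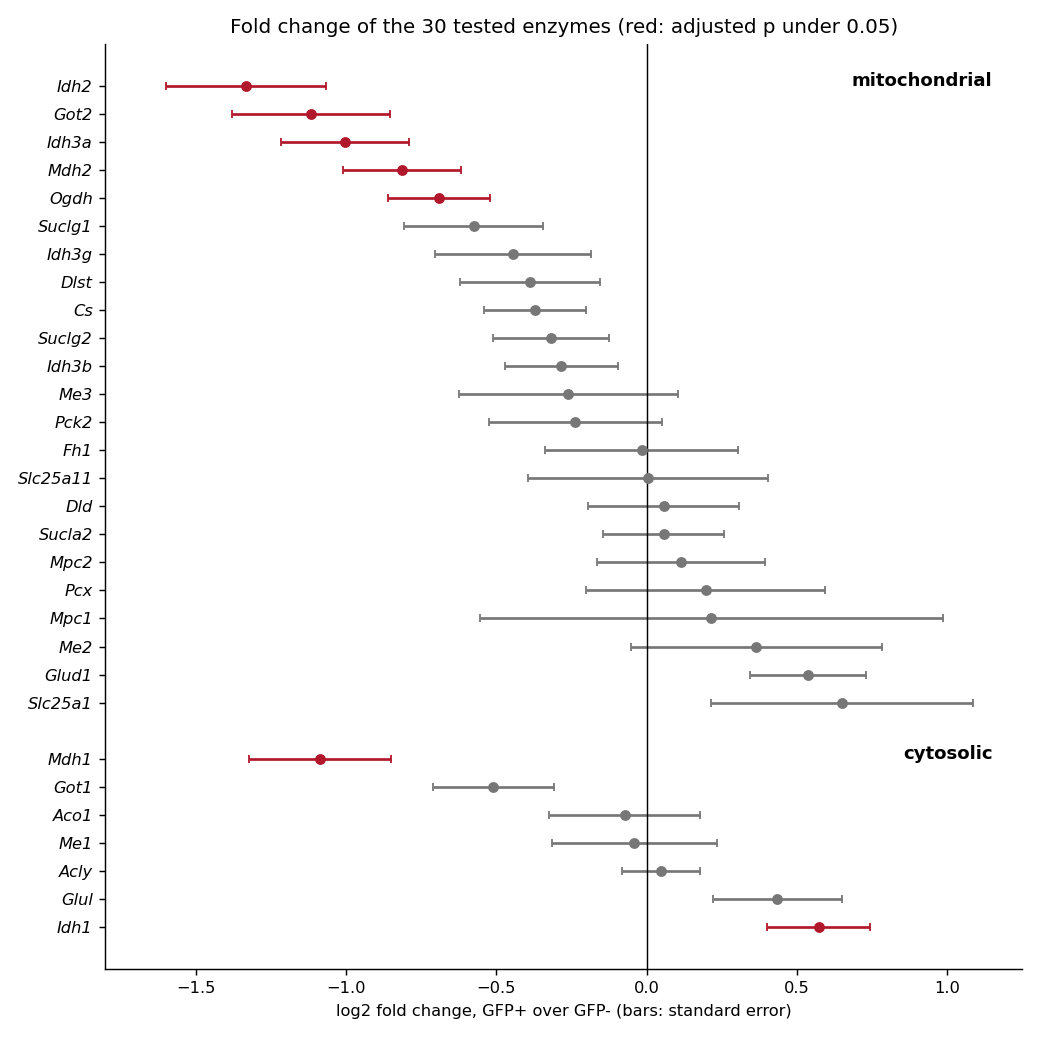
Log2 fold change of GFP+ over GFP- cells (x axis) with its standard error for the 30 tested genes, mitochondrial above and cytosolic below, n = 4 libraries a group. Red points passed an adjusted p of 0.05 by DESeq2: Idh2, Got2, Idh3a, Mdh2, Ogdh and Mdh1 below 0, and Idh1 above 0.

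The isocitrate dehydrogenases showed both directions. Idh2 makes 2-oxoglutarate and NADPH from isocitrate in mitochondria, and Idh1 carries out the same reaction in the cytosol. Idh3a, Idh3b and Idh3g encode the subunits of the separate NAD-linked enzyme of the cycle. For reference, the promoter windows of the genes for both NADP-linked enzymes are given 5′ to 3′, from RefSeq on GRCm38.p6, 250 bases before to 50 bases after a start site. Capitals mark a GC box (GGGCGG) or a CCAAT box (CCAAT), on either strand.
Idh2, chr7:80115301-80115600, minus strand: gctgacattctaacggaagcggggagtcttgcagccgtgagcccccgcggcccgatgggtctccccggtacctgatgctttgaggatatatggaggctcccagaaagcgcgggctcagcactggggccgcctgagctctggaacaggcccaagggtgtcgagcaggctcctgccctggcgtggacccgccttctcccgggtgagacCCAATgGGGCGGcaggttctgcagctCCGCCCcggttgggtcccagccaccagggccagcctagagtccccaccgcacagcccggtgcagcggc
Idh1, chr1:65186430-65186729, minus strand: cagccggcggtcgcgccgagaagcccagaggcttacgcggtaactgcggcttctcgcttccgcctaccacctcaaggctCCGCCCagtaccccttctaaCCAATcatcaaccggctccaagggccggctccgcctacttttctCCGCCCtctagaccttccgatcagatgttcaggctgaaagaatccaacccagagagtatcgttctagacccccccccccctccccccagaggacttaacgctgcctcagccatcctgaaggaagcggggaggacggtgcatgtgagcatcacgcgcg
Both windows hold 2 GC boxes and 1 CCAAT box. Such letters were common in the whole gene group: of 29 members with a window, 75.9% held a GC box and 62.1% a CCAAT box, against 35.9% and 37.9% of the first windows of 27025 genes. The windows of the members were also richer in G and C (median 62.0% against 52.7%). A match is a description of the letters and not evidence of binding.

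Idh2 (chr7:80094846-80115392, minus strand, GRCm38) had the largest decrease of the 30 tested members. Its normalised counts were 1454, 1261, 659 and 1445 in GFP- replicates 1 to 4 and 528, 540, 356 and 514 in GFP+ replicates 1 to 4. Every GFP+ library was below every GFP- library, and GFP- replicate 3 was the lowest of its group. The means were 1205 ± 374 and 484 ± 86.4 (SD, n = 4), a log2 fold change of -1.33 ± 0.27 (SE) with an adjusted p of 3.09e-05 by DESeq2 and 0.00696 by edgeR. Idh1 (chr1:65158616-65186500, minus strand) was at 1324, 985, 901 and 1046 in GFP- and 1703, 1482, 1700 and 1505 in GFP+ libraries. Its groups did not overlap either, but in the other direction (1064 ± 183 and 1597 ± 120, log2 fold change 0.57 ± 0.17, adjusted p = 0.0130). This call did not hold by edgeR (adjusted p = 0.0531). By DESeq2 its adjusted p was 0.0865 when GFP- replicate 2 was left out, 0.0631 when GFP- replicate 4 was and 0.0828 when GFP+ replicate 3 was. Idh1 was also not called with the score of melanocyte markers added to the model.

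In the ratio of Idh2 to Idh1 the size factor cancels, apart from the 1 added to each normalised count. The ratio was 1.10, 1.28, 0.732 and 1.38 in GFP- replicates 1 to 4. In GFP+ replicates 1 to 4 it was 0.310, 0.365, 0.210 and 0.342. All GFP+ libraries were below all GFP- libraries, with a mean log2 difference of -1.86. Because the groups were separate in opposite directions for Idh2 and Idh1, this ratio had to separate them and is no further test. The two-sided exact permutation test over 70 divisions then gives p = 0.0286, the smallest it allows with 4 against 4. After adjustment over the 12 ratios examined it was 0.171, which did not pass the correction. An adjusted p under 0.05 was out of reach unless most of the 12 ratios stood at that smallest value. Without 1 library the difference stayed between -2.05 and -1.69.

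**Figure D2:**
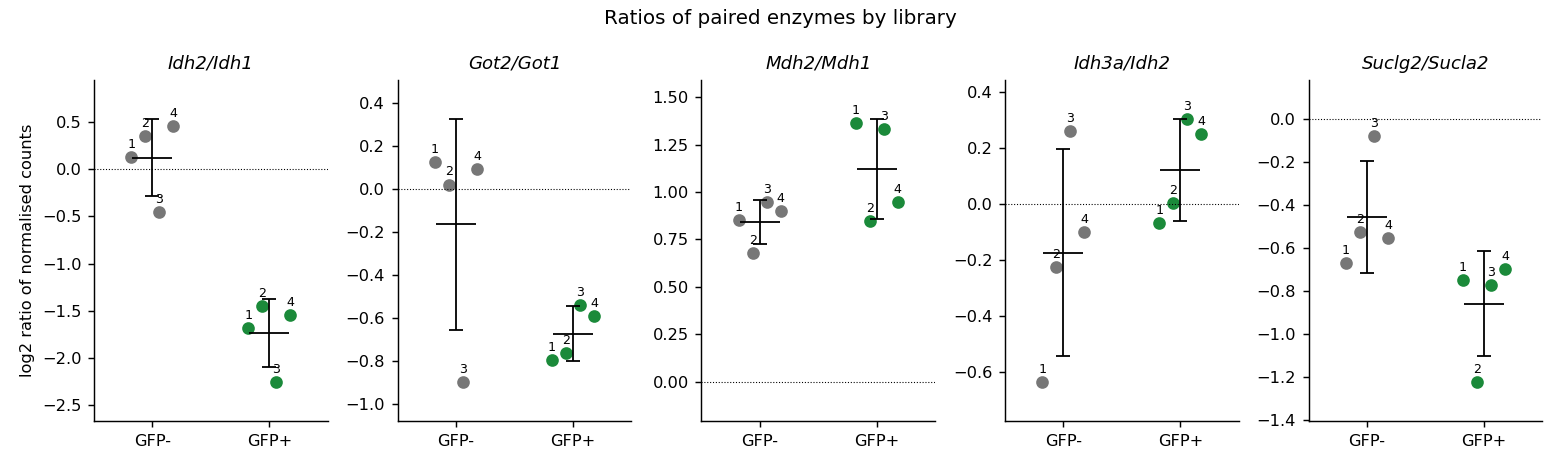
Log2 ratio of the normalised counts of paired enzymes (y axis, not corrected for gene length) in each library. Numbers are replicates, and black bars give the mean ± SD (n = 4). The groups are separate for Idh2/Idh1 and Suclg2/Sucla2 and overlap for Got2/Got1, Mdh2/Mdh1 and Idh3a/Idh2.

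Of the NAD-linked enzyme, Idh3a (chr9:54586334-54604661, plus strand), the catalytic subunit, fell. It had 936, 1077, 791 and 1350 normalised counts in GFP- libraries and 504, 541, 439 and 611 in GFP+ libraries. The groups were separate, at 1039 ± 238 and 524 ± 71.7, with a log2 fold change of -1.0 ± 0.21 (adjusted p = 1.36e-04 by DESeq2, 0.0117 by edgeR). The partner subunits did not pass the test: Idh3b was at 669 ± 140 and 560 ± 17.6 (log2 fold change -0.28 ± 0.19, adjusted p = 0.417), and Idh3g at 317 ± 55.6 and 237 ± 57.3 (-0.44 ± 0.26, 0.329). Whether Idh3a changed more than its partners was not tested. The ratio of Idh3a to Idh2 overlapped between groups (log2 difference 0.30, exact permutation p = 0.171).

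Citrate synthase, which opens the cycle, was at 1364 ± 185 normalised counts in GFP- and 1065 ± 122 in GFP+ (Cs, log2 fold change -0.37 ± 0.17, adjusted p = 0.166). Ogdh (chr11:6291633-6356642, plus strand) encodes the first subunit of the 2-oxoglutarate dehydrogenase complex, and it fell. It had 2924, 2444, 1912 and 2951 normalised counts in GFP- and 1611, 1614, 1618 and 1548 in GFP+ libraries. The 4 GFP+ values lay close together, all below the GFP- values, with means of 2558 ± 489 and 1598 ± 33.4 and a log2 fold change of -0.69 ± 0.17 (adjusted p = 0.00137 by DESeq2, 0.0285 by edgeR). The other subunits did not pass: Dlst was at 1189 ± 47.7 and 909 ± 273 (-0.39 ± 0.23, adjusted p = 0.345), with GFP+ replicate 3 above all GFP- libraries, and Dld, which other dehydrogenase complexes share, at 698 ± 212 and 740 ± 130 (0.06 ± 0.25, 0.944). Ogdhl, a paralog of Ogdh, had 0 to 2 raw reads in each GFP- library and 2 to 43 in GFP+ libraries and was not tested.

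Succinyl-CoA ligase joins a common subunit, Suclg1, with a partner that decides the nucleotide formed: Suclg2 for GTP and Sucla2 for ATP. Suclg1 was at 569 ± 157 and 392 ± 39.3 normalised counts (log2 fold change -0.58 ± 0.23, adjusted p = 0.1001). It overlapped only through GFP- replicate 3 at 341. Without that library it passed (-0.72, adjusted p = 6.22e-04). Suclg2 had 316, 333, 396 and 421 normalised counts in GFP- and 300, 274, 299 and 294 in GFP+ libraries. These did not overlap, but the change was small against its error (-0.32 ± 0.19, adjusted p = 0.356). Sucla2 was at 505 ± 84.2 and 533 ± 73.5 (0.06 ± 0.20, adjusted p = 0.928). The Suclg2 to Sucla2 ratio was 0.629, 0.695, 0.947 and 0.681 in GFP- and 0.596, 0.429, 0.585 and 0.617 in GFP+ libraries. The groups were separate, with the nearest libraries close together (log2 difference -0.40, exact permutation p = 0.0286, adjusted 0.171). Without 1 library this difference ranged from -0.47 to -0.28. The other 10 of the 12 ratios overlapped between the groups, with exact permutation p-values of 0.143 to 0.743 before adjustment. Fh1, fumarate hydratase, was at 318 ± 146 and 326 ± 45.6 (-0.02 ± 0.32, adjusted p = 0.986).

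Of the 5 members that belong to the malate-aspartate shuttle, 3 were called lower, beside 4.76% of all tested genes, in a grouping made with the calls known and not tested for enrichment. The shuttle moves the electrons of cytosolic NADH into mitochondria through malate dehydrogenases (Mdh1, Mdh2), aspartate aminotransferases (Got1, Got2), the 2-oxoglutarate carrier Slc25a11 and an aspartate-glutamate carrier (Slc25a12 or Slc25a13). The promoter windows of both malate dehydrogenase genes, whose counts fell in both compartments, are given in the same way, with the NRF1 core TGCGCA and the CRE half-site TGACGT also in capitals. Adjoining half-sites on both strands overlap.
Mdh2, chr5:135778399-135778698, plus strand: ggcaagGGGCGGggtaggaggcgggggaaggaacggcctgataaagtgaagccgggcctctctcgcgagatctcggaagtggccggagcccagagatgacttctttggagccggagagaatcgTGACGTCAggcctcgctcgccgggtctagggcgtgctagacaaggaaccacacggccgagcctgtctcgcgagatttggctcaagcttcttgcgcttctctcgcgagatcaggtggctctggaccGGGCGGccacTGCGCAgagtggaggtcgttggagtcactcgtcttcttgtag
Mdh1, chr11:21571885-21572184, minus strand: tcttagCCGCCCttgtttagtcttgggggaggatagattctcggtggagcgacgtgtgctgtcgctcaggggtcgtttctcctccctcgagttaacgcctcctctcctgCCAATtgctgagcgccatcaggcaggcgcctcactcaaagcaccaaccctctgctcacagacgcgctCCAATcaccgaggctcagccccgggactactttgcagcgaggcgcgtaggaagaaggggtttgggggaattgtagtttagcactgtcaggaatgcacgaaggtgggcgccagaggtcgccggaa
The Mdh2 window holds 2 GC boxes, 1 NRF1 core and 2 overlapping half-sites, and no CCAAT box. The Mdh1 window holds 1 GC box and 2 CCAAT boxes and no match to the other letters. Of all 29 windows 17.2% held the NRF1 core and 27.6% the half-site, against 8.06% and 7.64% over all genes.

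Mdh1 (chr11:21556787-21572367, minus strand) is the cytosolic enzyme. It had 1036, 1057, 615 and 1129 normalised counts in GFP- and 358, 508, 420 and 544 in GFP+ libraries. All GFP+ libraries were lower (959 ± 233 and 458 ± 84.4, log2 fold change -1.09 ± 0.24, adjusted p = 1.86e-04 by DESeq2, 0.0135 by edgeR). Mdh2 (chr5:135778480-135790398, plus strand), the enzyme of the cycle itself, had 1869, 1695, 1187 and 2108 in GFP- and 924, 916, 1056 and 1051 in GFP+ libraries. Again the groups were separate (1715 ± 391 and 987 ± 77.3, -0.81 ± 0.20, adjusted p = 0.00104 by DESeq2, 0.0230 by edgeR). Their ratio overlapped between groups (log2 difference 0.28, exact permutation p = 0.143).

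Got2 (chr8:95864134-95888547, minus strand) makes aspartate from oxaloacetate and glutamate in mitochondria. It had 731, 775, 396 and 1011 normalised counts in GFP- and 367, 342, 301 and 362 in GFP+ libraries. The groups were separate, by little at GFP- replicate 3 (728 ± 254 and 343 ± 29.8, log2 fold change -1.12 ± 0.26, adjusted p = 7.26e-04 by DESeq2, 0.0214 by edgeR). A pseudogene named after it, Got2-ps1, is annotated, and reads that match both could be lost or split. Got1, the cytosolic enzyme, had 670, 763, 736 and 946 in GFP- and 637, 580, 437 and 546 in GFP+ libraries, which did not overlap but did not pass the test (-0.51 ± 0.20, adjusted p = 0.0922). The Got2 to Got1 ratio overlapped (log2 difference -0.51, exact permutation p = 0.143). Slc25a11 was at 237 to 239.5 normalised counts in 3 GFP- libraries, 341 in GFP- replicate 3, 174 to 180 in 3 GFP+ libraries and 518 in GFP+ replicate 1 (0.00 ± 0.40, adjusted p = 0.997). Without GFP+ replicate 1 its log2 fold change was -0.51 (adjusted p = 0.210).

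**Figure D3:**
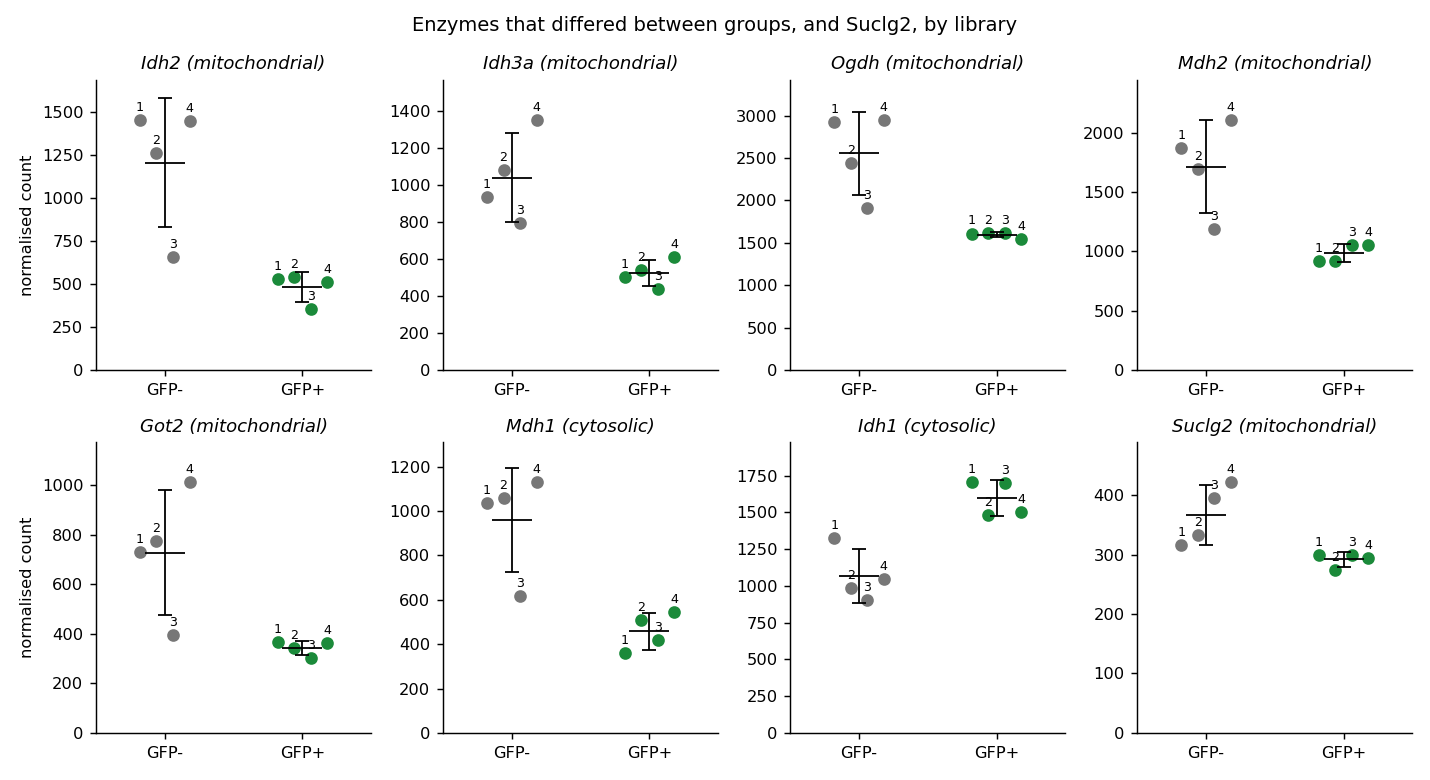
Normalised counts (y axis, from 0) of the 7 genes that passed the test and of Suclg2 in each GFP- (gray) and GFP+ (green) library. Numbers are replicates, and black bars give the mean ± SD (n = 4). In these 8 genes no GFP+ library lies within the GFP- range, and GFP- replicate 3 is the lowest GFP- library of the 6 lower genes.

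Glud1, Glul, Pcx and Pck2, which link the cycle to glutamate, glutamine, pyruvate and phosphoenolpyruvate, did not pass the test. Glud1, glutamate dehydrogenase, was the most abundant mitochondrial member per length. It had 2605, 2291, 2670 and 2022 normalised counts in GFP- and 4551, 3005, 3342 and 2959 in GFP+ libraries. These were separate and higher in GFP+, at the edge of the threshold (log2 fold change 0.54 ± 0.19, adjusted p = 0.0561), and the call was made under 6 of 17 other settings. Glul, glutamine synthetase, was at 2068 ± 258 and 2785 ± 714 (0.44 ± 0.21, adjusted p = 0.217). Pcx, which makes oxaloacetate from pyruvate, was at 100.1 ± 45.4 and 123 ± 34.5 (0.20 ± 0.40, adjusted p = 0.857). Pck2, which draws oxaloacetate off to phosphoenolpyruvate, was at 211 ± 65.8 and 187 ± 36.9 (-0.24 ± 0.29, adjusted p = 0.715).

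The malic enzymes, which turn malate to pyruvate, gave no call: log2 fold changes were -0.04 ± 0.27 for cytosolic Me1, 0.36 ± 0.42 for Me2 and -0.26 ± 0.36 for Me3. For citrate export, the carrier Slc25a1 was at 112 ± 53.3 and 178 ± 36.1 normalised counts (0.65 ± 0.44, adjusted p = 0.420). Acly, which splits the exported citrate to acetyl-CoA, was at 2583 ± 145 and 2661 ± 223 (0.05 ± 0.13), the smallest error among the members. Aco1, cytosolic aconitase and an iron-regulated RNA-binding protein, was at 493 ± 79.5 and 469 ± 116 (-0.07 ± 0.25). The subunits of the mitochondrial pyruvate carrier were Mpc2 at 243 ± 82.8 and 269 ± 35.3 (0.11 ± 0.28) and Mpc1 at 74.1 ± 36.3 and 87.0 ± 69.5 (0.22 ± 0.77). Mpc1 rested on 3 to 409 raw reads a library and had 4.17 to 171 normalised counts within the GFP+ group.

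Per kilobase of merged exons, Glul (730.2 normalised counts per kb over all libraries), Glud1 (696), Acly (497) and Idh1 (480) led the members, followed by Ogdh (381), Mdh2 (379), Idh2 (326), Mdh1 (276) and Got1 (262). The order differed between groups, described here without a test. In GFP- cells Idh2 was at 466 and Idh1 at 384 per kb, and in GFP+ cells Idh2 was at 187 and Idh1 at 576. Mdh2 fell from 481 to 277 per kb and Ogdh from 469 to 293. Me3 (7.29) and Ogdhl (1.20) were at the bottom.

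**Figure D4:**
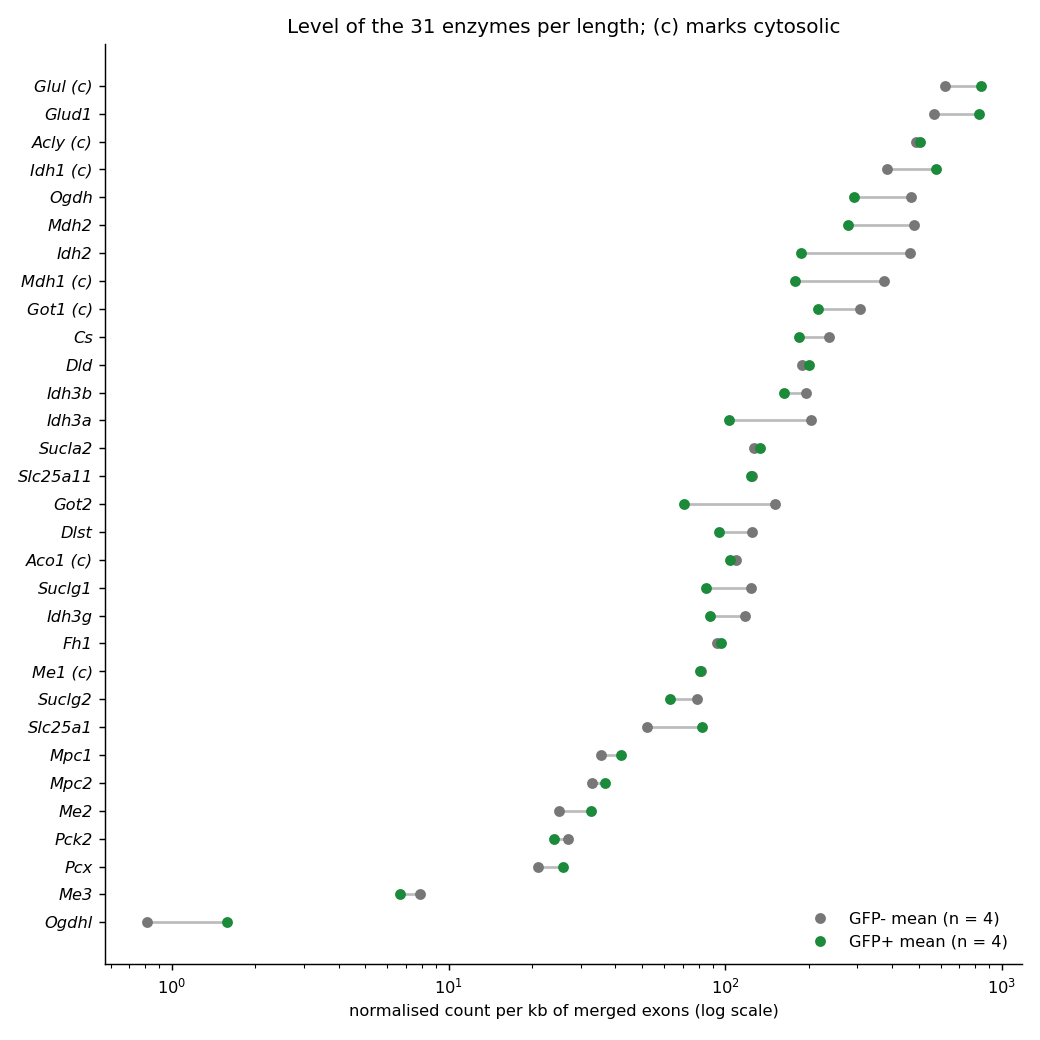
Mean normalised count per kb of merged exons (x axis, log scale, n = 4) of the 31 genes in GFP- (gray) and GFP+ (green) cells, ordered by the mean of all libraries. Glul and Glud1 lead in both groups, Idh2 moves from 466 in GFP- to 187 in GFP+, and Ogdhl is lowest.

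Other genes of these pathways were described from a list of 38, of which 35 could be tested: 5 were lower in GFP+ (14.3%, against 4.76% of all tested genes) and 0 higher, also at an unadjusted p under 0.05, by DESeq2, with a median log2 fold change of -0.21. EdgeR called 4 lower and 0 higher. Of 6 succinate dehydrogenase subunits and assembly factors, Sdhb, the iron-sulfur subunit, fell (-1.20 ± 0.30, adjusted p = 0.00151). Sdha, Sdhc and Sdhd were at -0.27, 0.05 and -0.21 and did not pass.

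Slc25a13, one of the aspartate-glutamate carriers of the shuttle, had the largest change of the list. It had 251, 264, 319 and 444 normalised counts in GFP- and 40.3, 68.2, 52.2 and 66.8 in GFP+ libraries (-2.47 ± 0.31, adjusted p = 1.93e-12 by DESeq2, 0.00138 by edgeR). Its paralog Slc25a12 was at 465 and 574 on average and did not pass (0.32 ± 0.30). Of 11 genes for pyruvate dehydrogenase, its kinases and phosphatases, Dlat, the acetyltransferase subunit, was called (-1.07 ± 0.38, adjusted p = 0.0493), not by edgeR (0.114), and 10 of 17 other settings lost it. Fasn, fatty acid synthase, fell (-0.84 ± 0.16, adjusted p = 9.86e-06). Of the 4 genes for glutamine and alanine entry, and of the 4 for mitochondrial acetyl-CoA and 2-hydroxyglutarate, DESeq2 and edgeR called 0, also at an unadjusted p under 0.05. Nnt, for which the annotation has overlapping entries, is listed at 0 in all libraries.

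In 20 genes for mitochondrial import, channels, chaperones and proteases, 18 had a log2 fold change below 0, with a median of -0.54. DESeq2 called 4 of them lower, which is 20%, the same share as of the members and against 4.76% of all tested genes (Hspd1, Tomm40, Immt and Lonp1, -0.66 to -0.51) and edgeR 0, with 8 lower at an unadjusted p under 0.05 by either tool. This median lay below the -0.26 of the mitochondrial members.

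Melanocyte markers were also lower in GFP+ than in GFP- libraries. In GFP- replicates 1 to 4 their sum was 54388, 49713, 27172 and 78958 normalised counts, and in GFP+ replicates 1 to 4 it was 4653, 8037, 4771 and 12536. GFP- replicate 3 had the lowest sum of the GFP- libraries, and the 6 lower enzymes were all lowest there, as were 19 of the 30 tested members (63.3%), 28.1% of all tested genes and 63.4% of all genes called lower. GFP- replicate 4 had the highest sum, and 5 of the 6 (all but Idh2) were highest there, against 12 of the 30 tested members (40%), 21.8% of all tested genes and 48.6% of all genes called lower. Within the GFP+ group the sums spread 2.69-fold. There replicate 4 had the highest sum, and 2 of the 6 enzymes (Idh3a and Mdh1) were highest in it, while Ogdh was lowest in it. Replicate 1 had the lowest sum, and 1 of the 6 (Mdh1) was lowest in it, while Got2 was highest in it.

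With a melanocyte score added to the model (the mean log2 normalised count of the 13 markers), DESeq2 called 0 members in either direction, with 2 lower at an unadjusted p under 0.05. Over all genes that model called 29 lower and 20 higher of 21160 tested (0.137% lower), and the scores of the groups do not overlap. The log2 fold changes of the 6 genes were then -0.75 (Idh2), -0.54 (Got2), -0.18 (Mdh1), -0.36 (Idh3a), -0.38 (Mdh2) and -0.47 (Ogdh), and that of Idh1 was 0.43. The group and the melanocyte transcripts cannot be told apart in this design. The 6 lower calls held without any 1 of the 8 libraries, GFP- replicate 3 included.

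**Figure D5:**
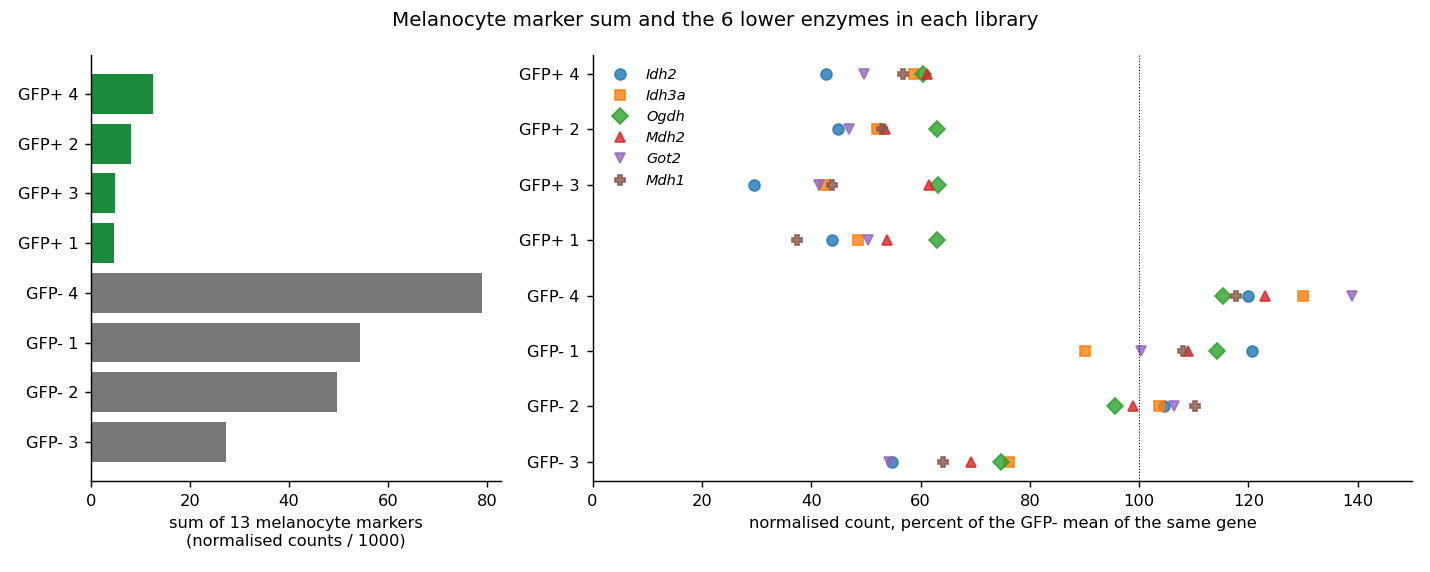
Left, the sum of 13 melanocyte markers in each library (x axis, normalised counts divided by 1000). Right, each of the 6 lower enzymes as a percentage of its GFP- mean (x axis). Libraries (y axis) are ordered by that sum within each group, and GFP- replicate 3 has the lowest values of the GFP- group in both panels.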

How the data were processed

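RNA of 8 sorted cell samples, 4 GFP+ and 4 GFP-, had been made into stranded libraries with the SMARTer Pico kit and sequenced on a NextSeq. Per the labels and the study's methods, the authors trimmed reads with cutadapt 3.4, mapped them to GRCm38 with STAR 2.7.3a and counted them per Ensembl gene with featureCounts 2.0.1, using strand. Such counting is uncertain for genes with close paralogs or pseudogenes. The authors deposited 1 table with a raw count per gene and library, from which all values start, and a rounded normalised score (the count over a DESeq2 size factor). 100% of these scores lay within 0.51 of the normalised counts computed here. The table also holds the authors' own means, fold changes, p-values and dispersions, which were not used. The number of unused per-sample columns was 0.

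The 29043 genes with a count were fitted with DESeq2 1.42.0 in R 4.3.3, with group as the only term and two-sided Wald tests. Independent filtering, Benjamini-Hochberg adjustment over all genes and an adjusted p under 0.05 followed the study's methods. Alternatives were edgeR 4.0.16 and limma 3.58.1 with TMM, other size factors and filters, a replicate block, a melanocyte score as a covariate and each library left out. Ratios of 12 enzyme pairs used log2 of the normalised count plus 1 and two-sided exact permutation tests over 70 divisions of the libraries. All 31 members are named, with linked genes where called or paired. Sdha, Sdhc, Sdhd, Slc25a12 and Nnt were named after their values were seen. A called linked gene and its ratio, counted in the totals, are not reported here. Each marker list is given by its sum and calls. Members, lists and tests were chosen with earlier results of these data known. Gene positions and merged exon lengths came from GENCODE release M21 on GRCm38, in which all 31 members were found, and promoter windows from RefSeq on GRCm38.p6, in which 29 were found. Code was tested on simulated data. No 2 libraries of a group were alike within sampling noise (chi-square per degree of freedom 10.2 to 81.3). Deviations of same-numbered samples correlated at 0.05, -0.16, -0.12 and 0.26. These values do not settle whether same-numbered samples came from the same tumor, and the model with group as the only term leaves any such pairing out. Fewer reads widen the counting error of GFP- replicate 3.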

Additional observations from a re-analysis of the deposited data

Results flagged for a closer look

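In 104 groups of 4 libraries, over members, called linked and housekeeping genes and ratios, 8 had a library far from the other 3 by Dixon's test at the 95% level, and chance alone flags about 1 in 20 groups. Among GFP+ libraries, Idh2 was at 356 normalised counts in replicate 3, against 514 to 540 in the others, and Ogdh at 1548 in replicate 4, against 1611 to 1618. Slc25a11 was at 518 in GFP+ replicate 1, against 174 to 180, and at 341 in GFP- replicate 3, against 237 to 239.5. In the same GFP- replicate 3, the shallowest library, Ogdhl was at 10.99 normalised counts, which is 1 raw read, against 0 to 1.43, Immt at 1055 against 1491 to 1577, and the log2 ratio of Got2 to Got1 at -0.89 against 0.02 to 0.13. The log2 ratio of Suclg2 to Sucla2 was -1.22 in GFP+ replicate 2, against -0.77 to -0.70.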

How the results depend on the processing

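The members called lower (6) and the mitochondrial (5) and cytosolic (1) counts kept within 1.5 times under 16 of 17 settings, with 6 to 7, 5 to 6 and 1 called. With the melanocyte score as a covariate 0 members, linked and housekeeping genes were called in these lists, where 0.137% of all genes were called lower. The count called higher was 0 by edgeR and with that covariate, and 2 by limma, with TMM factors in DESeq2, with genes under a mean of 10 raw counts left out and with the replicate block. Leaving out 1 library gave 0 to 2 called higher, 3 to 6 linked genes called lower and 0 to 6 housekeeping genes called lower, the last also 0 by edgeR and 1 with the block. The replicate block (6 lower, 2 higher) changed no other count of members. Over all genes, 727 were called lower and 712 higher, against 327 and 405 by edgeR, 29 and 20 with the covariate, 469 and 500 without GFP- replicate 4 and 520 and 460 without GFP+ replicate 3. Without independent filtering the median of all genes was -0.13, and 1.99% were called lower.

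Log2 fold changes that turned sign were all of genes that did not pass the test, apart from Dlat with the covariate. With limma they were -0.11 (Dld), -0.065 (Pcx), -0.25 (Slc25a11), -0.14 (Mpc1) and 0.0052 (Aco1). Slc25a11 was -0.0062 with TMM factors in DESeq2 and -0.019 with size factors from abundant genes. With the replicate block Fh1 was 0.091, Slc25a11 -0.17 and Mpc1 -0.34. With the covariate they were 0.020 (Idh3g), 0.021 (Suclg1), 0.033 (Fh1), -0.097 (Pcx), -0.21 (Glud1), -0.16 (Me2), -1.69 (Slc25a11), -0.011 (Mpc2), 0.31 (Aco1), -0.48 (Glul), -0.064 (Acly) and 0.028 (Dlat). Without 1 library the ranges were -0.081 to 0.19 for Dld, -0.044 to 0.18 for Sucla2, -0.22 to 0.26 for Fh1, -0.51 to 0.16 for Slc25a11, -0.34 to 0.59 for Mpc1, -0.19 to 0.093 for Aco1, -0.22 to 0.063 for Me1, -0.0098 to 0.080 for Acly, and -0.55 to 1.20 for the log2 ratio of Mpc2 to Mpc1. The cause was not tested. The ratio differences past an exact p of 0.05 numbered 2 with each pseudocount. Another scaling barely enters a ratio and is no check of it. A replicate block over 4 pairs cannot go below an exact p of 0.125, and both ratios were at that value. Depth limits Ogdhl and the values of GFP- replicate 3.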
